A study of Mus musculus with 12 samples.

Results

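The genes of cholesterol and fatty acid synthesis, with the regulators that set their transcription, were followed in Ocy454 cells under fibroblast growth factor 2 (FGF2) and an inhibitor of its receptors. A list chosen with earlier results of these data known named 32 genes. All 32 were found among the 35214 genes quantified and among the 12542 abundant enough to test. They comprised 18 enzymes of the sterol arm, 8 of the fatty acid arm and 6 regulators. The list does not cover every enzyme of either pathway. Ocy454 is an established mouse cell line used as a model of osteocytes, the cells embedded in bone matrix, and moving it from a cooler to a warmer incubator starts its differentiation. All cultures had differentiated for 5 days, then had 1 h of pretreatment with either DMSO, the solvent, or 200 nM BGJ398, an inhibitor of all FGF receptor kinases, and a further 48 h of treatment. Polyadenylated RNA was collected on differentiation day 7 from 3 libraries in each of 4 groups. The DMSO group received vehicle alone and the DMSO+FGF2 group vehicle with 2 ng/mL FGF2. The BGJ398 group received inhibitor alone and the BGJ398+FGF2 group inhibitor with 2 ng/mL FGF2. Every group came from the same line, and the labels do not say whether triplicates were separate passages, so p-values measure only the spread between these libraries.

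Cells make cholesterol from acetyl-CoA through mevalonate, farnesyl diphosphate, squalene and lanosterol, and make fatty acids from the same acetyl-CoA through malonyl-CoA, followed by elongation and desaturation. Both pathways are transcribed under the sterol regulatory element-binding proteins, SREBP2 (gene Srebf2) mainly for sterol enzymes and SREBP1 (Srebf1) mainly for fatty acid enzymes. SCAP escorts these factors out of the endoplasmic reticulum when membrane sterol is low, and the INSIG proteins hold the complex back when sterol is plentiful. Insig1 is itself an SREBP target, so its transcript is widely used as a readout of the pathway. The mevalonate branch is known in bone because nitrogen-containing bisphosphonates inhibit farnesyl diphosphate synthase (Fdps).

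Depth was 18951710 to 27716975 reads a library. On the main axis of deviation from group means, 3 libraries stood apart at the high end: BGJ398 replicate 1 (13.3), DMSO+FGF2 replicate 2 (14.6) and BGJ398+FGF2 replicate 2 (28). Their deviations were related to transcript length (r across genes of −0.20 to −0.32, against −0.06 to 0.27 in the other 9). BGJ398+FGF2 replicate 3 lay at −16.1 (r of 0.27), so others deviated too. Deviations balance within a group, so opposite values are partly forced. Counts are also given without these 3. Because the 3 were picked for their deviation, leaving them out also tends to lower the spread that the tests use. Among FGF receptor readouts, Etv5 was lower with BGJ398 both without FGF2 (log2 fold change −0.68 ± 0.10 (SE), adjusted p = 0.00951) and with it (−0.85 ± 0.10, adjusted p = 4.23e-05), whereas with FGF2 alone the 4 readouts (Dusp6, Spry4, Etv4 and Etv5) had 0.12 to 0.42, none past the test (adjusted p of 0.227 to 0.478). Under BGJ398 the log2 fold changes of all 4 readouts ran from −1.14 to −0.44 without FGF2 and from −1.25 to −0.8 with it. The osteoblast marker Alpl stood at 7.96 to 8.66 TPM with vehicle alone, and at 0.727 to 0.979 TPM once FGF2 was added. With inhibitor its range was 11.5 to 14.3 TPM, or 10.2 to 12.9 TPM where FGF2 was also present. Tests of Alpl are not given here. The osteocyte markers Sost and Mepe had no read in any library, and Phex, Dmp1 and Fgf23 averaged under 1 TPM. Of 8 adipocyte markers, Adipoq, Lep and Retn had no read and Plin1, Cidec and Pparg averaged under 1 TPM. The summed TPM of all 8 was 12.5 to 13.3 in DMSO, 9.57 to 10.6 in DMSO+FGF2, 12.2 to 14.5 in BGJ398 and 10.4 to 16.1 in BGJ398+FGF2, and macrophage markers (Adgre1 without a read, Ptprc and Csf1r under 1 TPM) summed to 10.3 to 11.5 TPM in DMSO+FGF2 and 3.97 to 8.22 TPM in the other groups. The 12 osteoblast and osteocyte markers together held 3255 to 3557 TPM in DMSO+FGF2 and 5300 to 6217 TPM elsewhere. Few genes carried these sums. Over the 12 libraries Cebpa averaged 10.9 TPM (adipocyte), Cd68 5.59 TPM (macrophage), and Col1a1 and Col1a2 2452 and 2514 TPM (osteoblast). The 3 macrophage markers tested did not move together with FGF2 in DMSO. Their log2 fold changes ran from −1.19 to 1.94, with a median of −0.75. The part of these marker levels in the results below was not tested. In bulk RNA, fewer expressing cells and less RNA per cell cannot be told apart.

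Levels in untreated cells were compared between genes as TPM, abundances that correct for transcript length. In the DMSO group Scd2, a stearoyl-CoA desaturase, was the highest of the 32 at 406 ± 18.1 TPM (SD, n = 3). Fdps followed at 196 ± 8.55 TPM, then the delta-5 desaturase Fads1 at 172 ± 2.84 TPM, Srebf2 at 163 ± 7.52 TPM and the ATP citrate lyase Acly, which supplies cytosolic acetyl-CoA to both pathways, at 129 ± 3.21 TPM. The low end was the fatty acid elongase Elovl6 at 13.3 ± 0.879 TPM, the sterol reductase Tm7sf2 at 9.96 ± 1.48 TPM and the isopentenyl diphosphate isomerase Idi1 at 5.48 ± 0.346 TPM. The members thus spanned 74.1-fold, and both arms were spread along the order. The median member stood at 40.4 TPM in the sterol arm, 79.7 TPM in the fatty acid arm and 70.6 TPM among the regulators. Of 31 neighbouring pairs in this order, 20 had overlapping DMSO libraries, including each pair of neighbours from Acat2 (81.0 TPM) down to Fads2 (63.5 TPM), so the order of those neighbours is not resolved, although the ends of that stretch do not overlap.

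**Figure D1:**
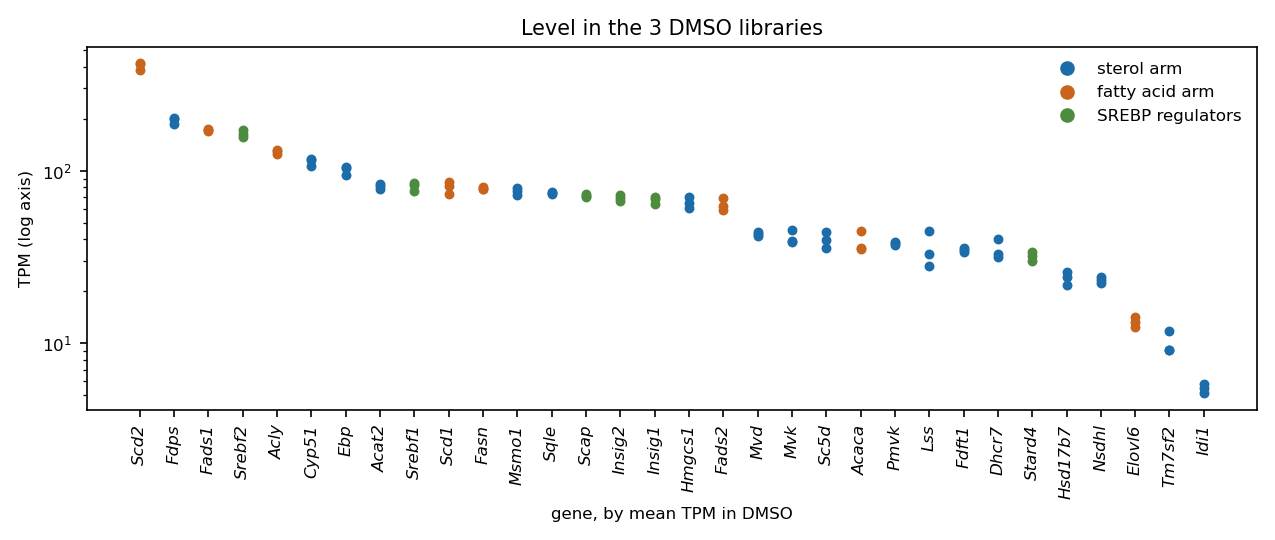
TPM (log axis) of each gene in the 3 DMSO libraries, one point per library, with genes ordered by mean and coloured by arm. Scd2 lies above all others, Idi1 lies lowest, and most neighbours in the middle of the order overlap.

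The first comparison asked what receptor inhibition did in the absence of added FGF2. Few genes of the transcriptome responded to BGJ398 alone: 41 of 12542 passed an adjusted p of 0.05 (0.327%), 19 of them higher (0.151%) and 22 lower (0.175%). Of the 32 members 4 fell and 0 rose: Insig1, Hmgcs1, Fdps and Sqle, which stood at places 6, 14, 7 and 8 by p-value among the 22 genes that fell. No fatty acid enzyme passed.

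Insig1, the sterol-sensing retention factor, was measured at 83.4, 92.2 and 86.2 CPM (reads scaled to library size) in the DMSO libraries and at 59.3, 62.6 and 66.2 CPM in the BGJ398 libraries. Every inhibitor library lay below every DMSO library. The log2 fold change was −0.48 ± 0.07 (SE), so that Insig1 fell by 28.2% (edgeR adjusted p = 0.0172). Hmgcs1, the synthase that makes hydroxymethylglutaryl-CoA at the entry to the mevalonate pathway, stood at 94.2, 103 and 94.4 CPM in DMSO and at 77.4, 73.2 and 72.3 CPM in BGJ398. Again the groups did not overlap, and the log2 fold change was −0.39 ± 0.07 (adjusted p = 0.0284).

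Fdps, which joins isoprene units into farnesyl diphosphate, stood at 117, 126 and 129 CPM in DMSO and at 99.5, 89.9 and 97.7 CPM in BGJ398, a log2 fold change of −0.38 ± 0.06 (adjusted p = 0.0198). Sqle, the epoxidase that adds oxygen to squalene, stood at 117, 119 and 115 CPM against 95.6, 95.3 and 93.8 CPM (−0.30 ± 0.05, adjusted p = 0.0212). Both genes showed separate groups, and the Sqle libraries were the tightest of these 4 genes within each group. These 4 calls lay close to the threshold: all 4 were lost on leaving out DMSO replicate 2 (adjusted p of 0.130 to 0.184), DMSO replicate 3 (0.0969 to 0.113) or BGJ398 replicate 2 (0.0814 to 0.131), and other libraries ended some of them: DMSO replicate 1 for Hmgcs1 and Sqle (0.0965 and 0.104), BGJ398 replicate 1 for Insig1 (0.0612), and BGJ398 replicate 3 for Hmgcs1, Fdps and Sqle (0.0966 to 0.163). With counts scaled for transcript length only Insig1 passed (0.0470, the other 3 at 0.0521 to 0.110). Without the 3 libraries that stood apart, 14 members passed as lower and Ebp as higher, against 730 of 12616 genes in all (5.79%).

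**Figure D2:**
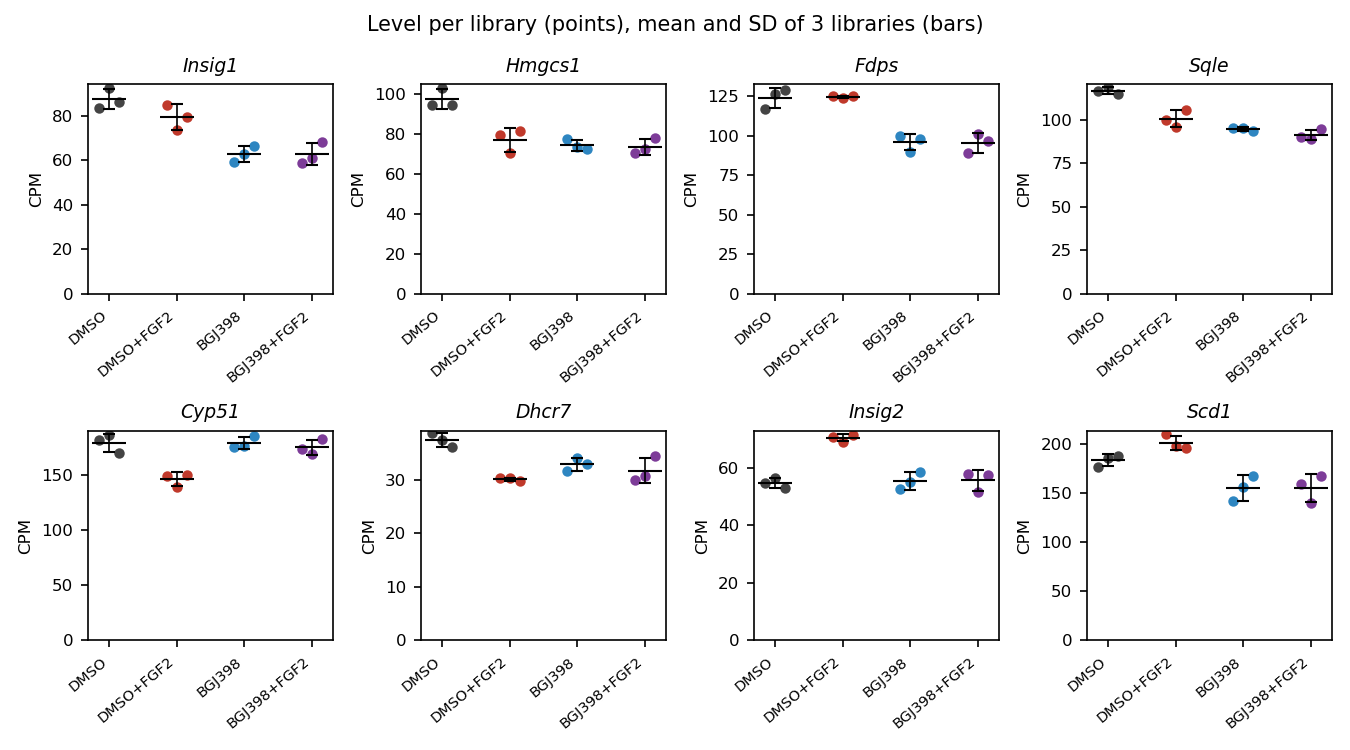
CPM of 8 members in each library (points), with the mean and SD of the 3 libraries of a group (bars), on axes that start at 0. Insig1, Hmgcs1, Fdps and Sqle are lower in both inhibitor groups than in DMSO, and Hmgcs1 and Sqle are also lower with FGF2 alone. Cyp51 is lowest with FGF2 alone, and Insig2 is highest there. Dhcr7 has its lowest mean with FGF2 alone, but its libraries there overlap those of BGJ398+FGF2.

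The promoters of the 2 of these 4 genes that the RefSeq table (build GRCm38.p6) held are shown as sequence context. Whether SREBP had a part in the fall was not tested. Each window runs from 250 to 51 bases before the annotated start, on the plus strand, and capitals mark every match on either strand to 3 motifs: the sterol regulatory element TCACNCCAC, the CCAAT box (CCAAT, or ATTGG on the other strand) and the E-box CACGTG. Fdps and Sqle had no entry.
Hmgcs1, chr13:119690101-119690300: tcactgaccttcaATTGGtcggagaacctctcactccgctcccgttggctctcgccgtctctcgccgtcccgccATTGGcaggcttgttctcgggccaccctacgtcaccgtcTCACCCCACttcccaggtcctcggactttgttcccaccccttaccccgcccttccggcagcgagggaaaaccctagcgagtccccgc
Insig1, chr5:28071162-28071361: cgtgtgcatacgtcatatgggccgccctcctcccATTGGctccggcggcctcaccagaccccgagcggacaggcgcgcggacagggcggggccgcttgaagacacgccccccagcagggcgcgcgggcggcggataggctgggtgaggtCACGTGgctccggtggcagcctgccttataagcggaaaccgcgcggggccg
The Hmgcs1 window holds the sterol regulatory element, as TCACCCCAC 137 bases before the start, and 2 CCAAT boxes. The Insig1 window holds 1 CCAAT box and 1 E-box. Of the 25 members with an entry, Hmgcs1 alone held this exact element, which occurred in 0.81% of all 32851 windows. Those 25 members have 33 windows. A CCAAT box was found in 15 of the 33 (45.5%) and in 28.4% of all windows, and an E-box in 4 of the 33 (12.1%; Dhcr7, Hsd17b7, Insig1 and Sc5d) and in 4.34% of all windows. These are matches of letters in a short window and say nothing on binding.

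The other members followed mostly in the same direction without passing the test. In all, 29 of 32 members had a log2 fold change below 0 (48.9% of all genes), 16 were lower at an unadjusted p of 0.05 (4.11%), and in 20 all BGJ398 libraries lay below all DMSO libraries (8.08%). Those 20 were 11 of 18 sterol enzymes, 6 of 8 fatty acid enzymes and 3 of 6 regulators. Because the list was chosen with earlier results of these data known, these shares describe it and are not independent evidence. Lanosterol synthase (Lss) stood at 77.5, 73.3 and 77.8 CPM in DMSO and 61.5, 63.0 and 58.4 CPM in BGJ398 (−0.32 ± 0.07, adjusted p = 0.0641). Srebf2, the sterol-specific factor, stood at 424, 474 and 449 CPM against 391, 343 and 360 CPM (−0.30 ± 0.07, adjusted p = 0.0906). The groups were separate for both genes, yet neither change passed. The methylsterol monooxygenase Msmo1 had −0.29 ± 0.07 (adjusted p = 0.101), the sterol desaturase Sc5d −0.28 ± 0.07 (0.173) and squalene synthase Fdft1 −0.24 ± 0.07 (0.232).

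Early mevalonate enzymes other than Hmgcs1 were less uniform. Acetoacetyl-CoA thiolase Acat2 had −0.13 ± 0.06, the kinases Mvk and Pmvk −0.15 ± 0.09 and −0.20 ± 0.10, the decarboxylase Mvd −0.23 ± 0.10 and Idi1 −0.06 ± 0.23, none past the test (adjusted p of 0.562 to 0.991). Of the late enzymes, Nsdhl and Dhcr7 did not overlap between groups (−0.22 ± 0.08 and −0.18 ± 0.07), nor did Tm7sf2 (−0.14 ± 0.17), while Hsd17b7 overlapped (−0.12 ± 0.11). Cyp51 and Ebp stood apart from this pattern. The lanosterol demethylase Cyp51 stood at 181, 186 and 170 CPM in DMSO and 175, 176 and 185 CPM in BGJ398 (0.00 ± 0.05). The sterol isomerase Ebp was at 74.8, 69.1 and 73.3 CPM in DMSO and at 96.4, 84.8 and 87.6 CPM in BGJ398, the single member whose BGJ398 libraries all lay above DMSO (9.11% of all genes did; 0.31 ± 0.07, adjusted p = 0.0926).

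In the fatty acid arm the changes under BGJ398 alone ranged from −0.24 to 0.00, within the range of the sterol enzymes. Scd1 had −0.24 ± 0.07 (adjusted p = 0.281), Elovl6 −0.21 ± 0.11 (0.671) and Fads1 −0.20 ± 0.05 (0.122). Fads1 stood at 312, 320 and 328 CPM in DMSO and 280, 278 and 277 CPM in BGJ398, so its groups were separate and tight although it missed the threshold. The delta-6 desaturase Fads2 had −0.14 ± 0.06, Scd2 −0.13 ± 0.08, fatty acid synthase Fasn −0.10 ± 0.08, Acly −0.09 ± 0.05 and acetyl-CoA carboxylase Acaca 0.00 ± 0.09 (adjusted p of 0.608 to 0.998). Among the remaining regulators, the sterol carrier Stard4 had −0.19 ± 0.07 and Srebf1 −0.19 ± 0.08, whereas Scap had 0.04 ± 0.05 and Insig2 0.02 ± 0.06 (adjusted p of 0.401 to 0.989). The 2 INSIG genes therefore gave different values under inhibitor alone, −0.48 and 0.02, a difference that was not tested.

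**Figure D3:**
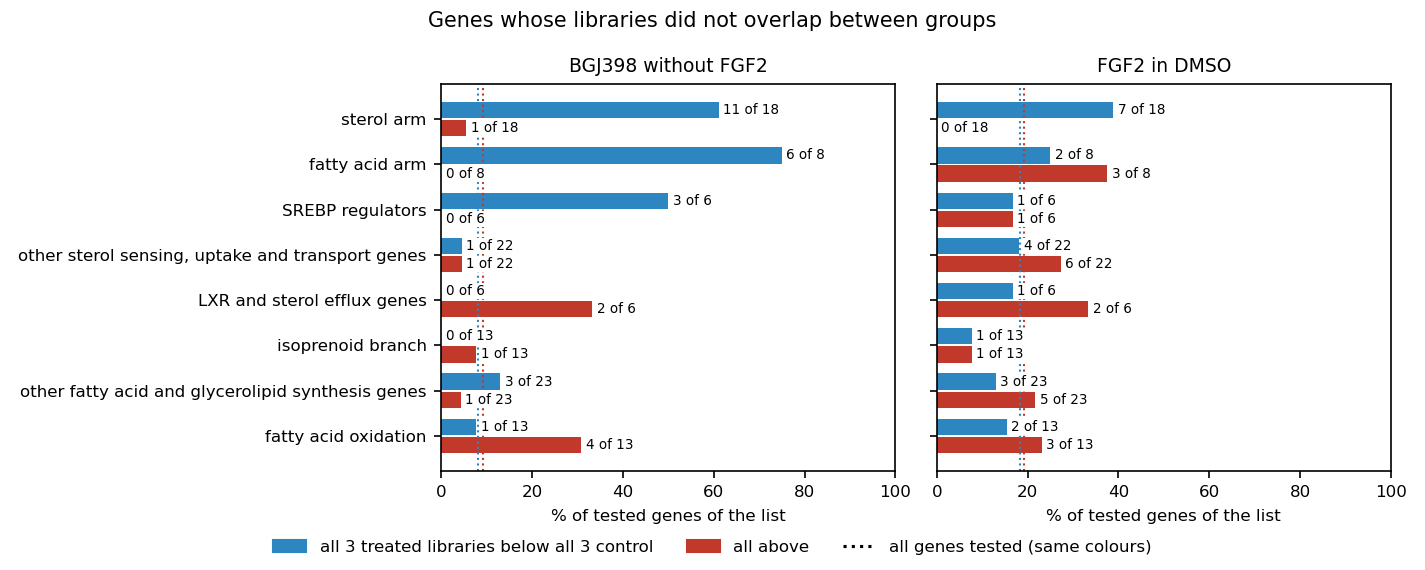
Share of tested genes of each list whose 3 treated libraries all lay below (blue) or above (red) all 3 control libraries, with counts beside the bars and the share over all tested genes as dotted lines, for BGJ398 without FGF2 and for FGF2 in DMSO. Under BGJ398 alone the 3 synthesis lists reach 50% to 75% in the lower direction, against 8.08% of all genes, while the other lipid lists stay between 0 of 13 and 3 of 23 genes. The lists were chosen with earlier results of these data known.

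The second comparison asked what FGF2 changed when its receptors were not inhibited; it shares the DMSO libraries with the first. Of all genes 13.4% passed, 7.57% higher and 5.82% lower. Of the 32 members 4 sterol enzymes fell (Hmgcs1, Sqle, Cyp51 and Dhcr7) and 1 regulator, Insig2, rose. No fatty acid enzyme passed in either direction. The share of members called, 15.6%, is near that of all genes.

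Cyp51 stood at 149, 139 and 150 CPM with FGF2, below all 3 DMSO libraries, and its log2 fold change was −0.29 ± 0.05 (adjusted p = 0.00219). Dhcr7, the reductase of the last steps to cholesterol, stood at 38.7, 37.4 and 36.1 CPM in DMSO and 30.3, 30.3 and 29.8 CPM with FGF2 (−0.31 ± 0.07, adjusted p = 0.00650). Hmgcs1 stood at 79.3, 70.2 and 81.4 CPM with FGF2 (−0.34 ± 0.07, adjusted p = 0.00411) and Sqle at 100, 96.3 and 106 CPM (−0.22 ± 0.05, adjusted p = 0.00902). All 4 enzymes showed no overlap with DMSO. Cyp51 and Dhcr7 lost the call with counts scaled for transcript length (adjusted p of 0.186 and 0.124), whereas Hmgcs1, Sqle and Insig2 kept it in all 21 alternatives run.

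Insig2, the paralog of the retention factor that is not induced by SREBP in the textbook pathway, moved the other way. It stood at 54.8, 56.6 and 53.0 CPM in DMSO and at 71.0, 69.2 and 71.7 CPM in DMSO+FGF2, with a wide gap between groups. The log2 fold change was 0.37 ± 0.06, a rise of 28.9% (adjusted p = 0.00138). Its leading transcript, Insig2-201, which held 60.5% of the gene's TPM over all libraries, averaged 38.7 TPM in DMSO and 48.6 TPM with FGF2. Insig1 over the same libraries had −0.14 ± 0.07 (adjusted p = 0.260), and its FGF2 libraries (84.9, 73.6 and 79.5 CPM) overlapped the DMSO libraries.

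Over the whole list, 10 of 32 members had all FGF2 libraries below all DMSO libraries (18.4% of all genes), 7 of them sterol enzymes, 2 fatty acid enzymes and the regulator Stard4. In the other direction 4 members did not overlap (19.2% of all genes): Insig2 and the fatty acid genes Fasn, Scd1 and Acly. Fasn stood at 364, 368 and 354 CPM in DMSO and 397, 413 and 391 CPM with FGF2, yet 0.15 ± 0.08 did not pass (adjusted p = 0.275). Scd1 had 0.13 ± 0.07 (0.283) and Acly 0.05 ± 0.05 (0.582). The desaturases Fads1 and Fads2 and the elongase Elovl6 had the opposite sign, −0.13 ± 0.05 (0.0982), −0.18 ± 0.06 (0.0902) and −0.25 ± 0.11 (0.152). Fdps, lower under inhibitor, had 0.00 ± 0.06 with FGF2, and Ebp −0.01 ± 0.07. Srebf2 (−0.05 ± 0.07), Srebf1 (0.02 ± 0.08) and Scap (0.02 ± 0.05) did not pass either.

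The third comparison gave FGF2 to cells already under BGJ398. No gene passed edgeR's adjusted p of 0.05 (0.0% called), 325 genes (2.59%) had an unadjusted p under 0.05, and DESeq2 called 5 genes and limma-voom 0. Idi1 was the single member at an unadjusted p under 0.05, with 6.21, 4.13 and 6.37 CPM in BGJ398 and 4.53, 2.64 and 3.69 CPM in BGJ398+FGF2 (−0.61 ± 0.25, unadjusted p = 0.0260). Its groups overlapped, and no member had separate groups in either direction (2.88% of all genes lower, 3.44% higher). Outside Idi1 the members ranged from −0.12 to 0.09. The 4 genes that fell with FGF2 in DMSO had −0.02 ± 0.07 (Hmgcs1), −0.06 ± 0.05 (Sqle), −0.03 ± 0.05 (Cyp51) and −0.05 ± 0.07 (Dhcr7) here, and Insig2 had 0.01 ± 0.06.

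The difference between the FGF2 changes with and without inhibitor was tested as an interaction, which passed in 4.24% of all genes, 2.25% below 0. Insig2 was the single member that passed, at −0.36 ± 0.09 (adjusted p = 0.0359): FGF2 raised it in DMSO and left it at 58.1, 51.6 and 57.7 CPM under inhibitor, beside 52.8, 55.0 and 58.7 CPM with inhibitor alone. This call was lost in 12 of 20 alternatives, at an adjusted p of up to 0.111. Leaving out any 1 library of the DMSO or DMSO+FGF2 groups, BGJ398 replicate 2 or 3, or BGJ398+FGF2 replicate 1 ended it, and its value stayed between −0.45 and −0.31. Cyp51 (0.26 ± 0.08, adjusted p = 0.0703) and Hmgcs1 (0.32 ± 0.09, 0.0803) did not pass by edgeR. Both passed by DESeq2 (adjusted p of 0.0246 and 0.0364), with a length offset (0.0227 and 0.0365) and without the 3 libraries that stood apart (0.0363 and 0.0280, beside 8.23% of all genes), and Cyp51 also without BGJ398+FGF2 replicate 2 alone (0.0291). A difference between DMSO and BGJ398 for these enzymes thus depended on the method and the libraries used.

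The fourth comparison set BGJ398+FGF2 against DMSO+FGF2 and shares no library with the first. Here 22.2% of all genes passed, 11.4% lower and 10.8% higher. Of the 32 members 10 fell and 1 rose: the sterol enzymes Mvd, Idi1, Fdps and Lss, the fatty acid genes Fasn, Scd1 and Acly, and the regulators Insig1, Insig2 and Srebf2 were lower, and Cyp51 was higher. Insig1 and Fdps were called lower in both inhibitor comparisons, 2 of the 4 members lower without FGF2 and 2 of the 10 lower with it. How many of all genes were called lower in both was not counted, so this overlap is not read as particular to the members.

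Insig1 stood at 58.7, 60.8 and 68.3 CPM in BGJ398+FGF2, below all DMSO+FGF2 libraries (−0.34 ± 0.07, adjusted p = 0.00513). Fdps stood at 125, 124 and 125 CPM in DMSO+FGF2 and 88.7, 101 and 96.8 CPM in BGJ398+FGF2 (−0.38 ± 0.06, adjusted p = 0.000619). In both genes the level under inhibitor was nearly that of the BGJ398 group without FGF2, 62.6 ± 5.04 against 62.7 ± 3.47 CPM for Insig1 and 95.5 ± 6.26 against 95.7 ± 5.11 CPM for Fdps (SD, n = 3). Mvd, the decarboxylase that ends the mevalonate steps, stood at 49.3, 49.9 and 42.0 CPM against 32.2, 35.2 and 33.9 CPM (−0.48 ± 0.10, adjusted p = 0.00346). Srebf2 had −0.26 ± 0.07 (0.0130) and Lss −0.25 ± 0.07 (0.0140).

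Among fatty acid genes, Scd1 stood at 210, 198 and 196 CPM in DMSO+FGF2 and 159, 140 and 168 CPM in BGJ398+FGF2, with separate groups (−0.37 ± 0.07, adjusted p = 0.00298). Acly stood at 326, 325 and 322 CPM against 283, 269 and 297 CPM (−0.20 ± 0.05, adjusted p = 0.0116). Fasn stood at 315, 297 and 390 CPM under inhibitor, with replicate 3 just below the lowest FGF2 library at 391 CPM (−0.26 ± 0.08, adjusted p = 0.0319). The Fasn call was lost in 8 of 21 alternatives, among them without BGJ398+FGF2 replicate 1 (−0.22, 0.121) or replicate 2 (−0.18, 0.0744), without any 1 DMSO+FGF2 library (−0.24 to −0.28, 0.0621 to 0.0974), with counts scaled for length (−0.08, 0.726), and without the 3 libraries that stood apart (−0.17, 0.0956). Without BGJ398+FGF2 replicate 3 it was −0.39 (0.000465). Acaca, Scd2, Elovl6, Fads1 and Fads2 did not pass (−0.13 to 0.00).

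Insig2 fell by 0.34 ± 0.06 on the log2 scale (adjusted p = 0.00179) and Cyp51 rose by 0.26 ± 0.05 (0.00366). With counts scaled for length Insig2 was at −0.54 (0.000335). For both, the DMSO+FGF2 group was the one that lay apart from the other 3 groups: mean Insig2 was 54.8 CPM in DMSO, 55.5 in BGJ398 and 55.8 in BGJ398+FGF2 against 70.6 with FGF2 alone, and mean Cyp51 was 179, 178 and 175 CPM against 146. Hmgcs1 and Sqle, lower with either treatment alone, had −0.07 ± 0.07 (adjusted p = 0.523) and −0.14 ± 0.05 (0.0587) here, and all their treated libraries lay below all DMSO libraries in each of the 3 treated groups. Ebp was again higher without passing (0.20 ± 0.07, 0.0540).

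Idi1 had the widest change, −0.85 ± 0.24 (adjusted p = 0.0224), from 8.55, 4.56 and 6.52 CPM to 4.53, 2.64 and 3.69 CPM. The DMSO+FGF2 libraries were widely spread, and all 3 BGJ398+FGF2 libraries lay below them. It lost the call without DMSO+FGF2 replicate 1 (−0.60, adjusted p = 0.111), DMSO+FGF2 replicate 3 (0.0557), BGJ398+FGF2 replicate 2 (−0.67, 0.0573) or BGJ398+FGF2 replicate 3 (0.0525). Lss was lost without DMSO+FGF2 replicate 3 (0.0609) or BGJ398+FGF2 replicate 1 (0.0534), and with counts scaled for length (−0.16, 0.617), which also ended the Cyp51 call (0.22, 0.378). Srebf2 was lost without BGJ398+FGF2 replicate 1 (0.0508). When only the DMSO+FGF2 and BGJ398+FGF2 libraries entered the fit, Acly (0.0642), Idi1 (0.0630), Lss (0.0620) and Fasn (0.109) were not called. Over the list, 14 of 32 members had all inhibitor libraries below all DMSO+FGF2 libraries (17.5% of all genes) and 2, Cyp51 and Ebp, had them above (17.3%).

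**Figure D4:**
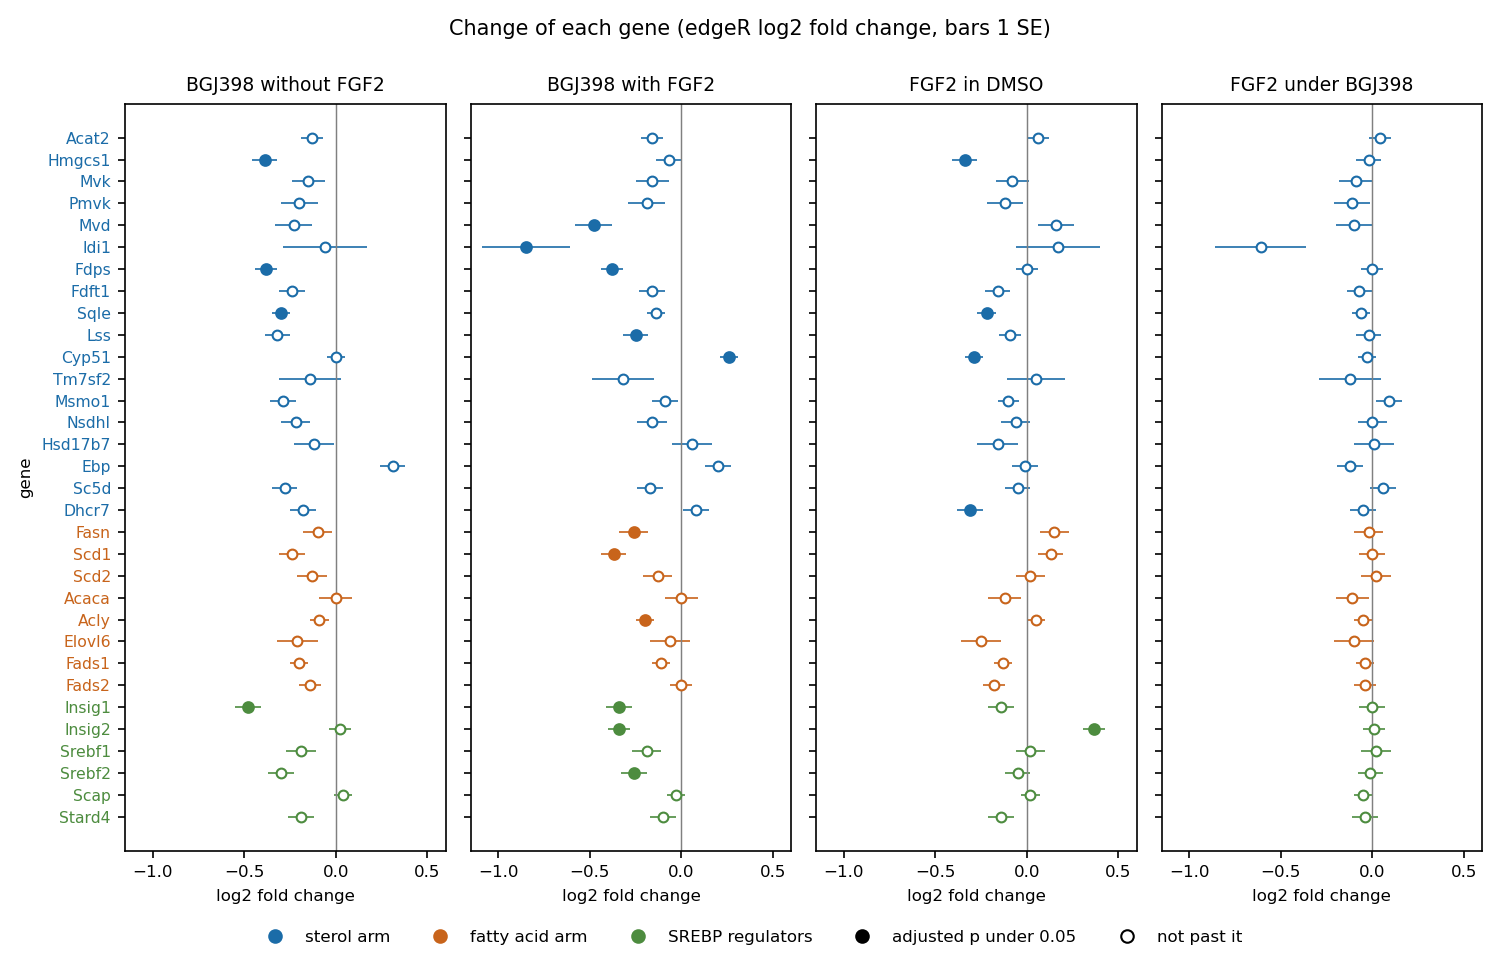
Log2 fold change of each of the 32 genes in the 4 comparisons, with bars of 1 SE and filled points for an adjusted p under 0.05, coloured by arm. Under BGJ398 most points lie left of 0 in both arms, with Ebp and, with FGF2 present, Cyp51 to the right, and under BGJ398 FGF2 leaves all but Idi1 near 0.

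The sterol and fatty acid arms were then set side by side; no test was run between them. Under BGJ398 alone the median log2 fold change was −0.21 over 18 sterol enzymes, −0.13 over 8 fatty acid enzymes and −0.19 over the regulators, against 0.00 over all genes tested, so the arms lay 0.07 apart. Without DMSO replicate 1 the sterol and fatty acid medians were −0.20 and −0.18. With FGF2 present the inhibitor gave medians of −0.16, −0.12 and −0.23. FGF2 in DMSO gave −0.09 in the sterol arm and −0.05 in the fatty acid arm. The fatty acid median was −0.02 without DMSO+FGF2 replicate 2 and 0.01 with a length offset, so its sign is not settled, and the sterol median was −0.06 without DMSO+FGF2 replicate 2. In the fatty acid arm that median combined members of both signs, 4 below 0 and 4 above, whereas 13 of 18 sterol enzymes were below 0 (51.0% of all genes).

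The mean log2 CPM of an arm, set relative to its DMSO mean, gave 1 value a library. For the sterol arm the 3 DMSO libraries lay within 0.003 of their mean. The BGJ398 libraries lay at −0.15, −0.24 and −0.18, the BGJ398+FGF2 libraries at −0.27, −0.27 and −0.23 and the DMSO+FGF2 libraries at −0.05, −0.15 and −0.08. All 9 treated libraries were thus below the 3 DMSO libraries. For the fatty acid arm DMSO itself ranged from −0.05 to 0.04 and DMSO+FGF2 overlapped it (−0.09 to 0.01). On the log2(TPM + 1) scale they did not overlap, with DMSO at −0.024 to 0.024 and DMSO+FGF2 at −0.195 to −0.032. On that scale BGJ398 libraries lay at −0.243 to −0.069. BGJ398+FGF2 libraries lay there at −0.459 to −0.002, reaching into the DMSO range. On the CPM scale BGJ398 libraries lay at −0.17, −0.14 and −0.10, and BGJ398+FGF2 libraries at −0.17, −0.33 and −0.06, the lowest being replicate 2, one of the 3 libraries that stood apart. Means on the CPM scale were −0.19 ± 0.048 and −0.14 ± 0.035 (SD, n = 3) under BGJ398 for the sterol and fatty acid arm.

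**Figure D5:**
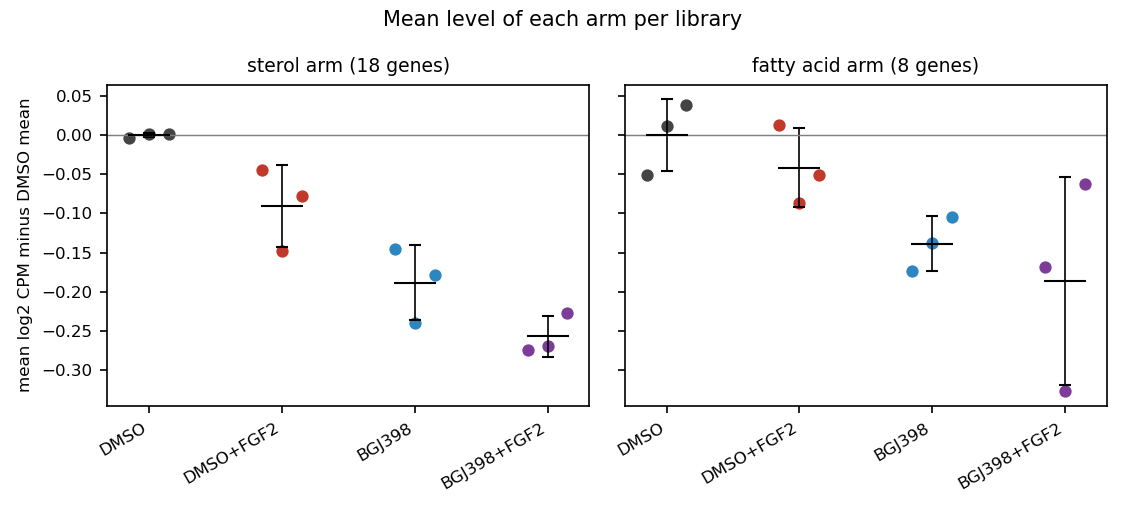
Mean log2 CPM of the 18 sterol enzymes (left) and the 8 fatty acid enzymes (right) minus their DMSO mean, one point per library, with the mean and SD of each group. The DMSO libraries of the sterol arm nearly coincide and all treated libraries lie below them, while on this CPM scale the fatty acid arm overlaps DMSO with FGF2 alone.

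Other lipid genes were read against the same comparisons, from lists of neighbouring pathways. Under BGJ398 alone none passed in any of these lists: 0 of 22 genes of sterol sensing, uptake and transport, 0 of 6 LXR and efflux genes, 0 of 13 of the isoprenoid branch, 0 of 23 other fatty acid and glycerolipid synthesis genes and 0 of 13 of fatty acid oxidation. Only 0.327% of all genes passed in this comparison, so these counts do not set the lists apart. Their medians were 0.02, 0.03, 0.01, −0.02 and 0.04, and 1, 0, 0, 3 and 1 of them lay wholly below DMSO (8.08% of all genes did). The isoprenoid branch starts from the product of Fdps, and none of its 13 genes passed in any comparison, beside up to 22.2% of all genes.

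With FGF2 in DMSO, 3 of 22 sterol sensing and transport genes passed, a share of 13.6% beside 13.4% of all genes. Mbtps1, the protease that makes the first cut in SREBP, fell (457, 442 and 441 CPM against 496, 517 and 509 CPM in DMSO, −0.18 ± 0.04, adjusted p = 0.0126). The sterol-regulated membrane protein Tmem97 fell (−0.33 ± 0.08, 0.0167), and Erlin2, of an endoplasmic reticulum complex for protein degradation, rose (0.22 ± 0.07, 0.0419). Of the other fatty acid and glycerolipid genes 1 of 23 passed: Gpam, the mitochondrial acyltransferase that begins glycerolipid synthesis, fell from 83.0, 85.5 and 84.3 CPM to 70.2, 66.5 and 64.6 CPM (−0.33 ± 0.06, adjusted p = 0.00374).

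With FGF2 present, BGJ398 moved those 4 genes in the other sense, in a comparison that shares the DMSO+FGF2 libraries with the one before: Mbtps1 0.16 ± 0.04, Tmem97 0.38 ± 0.08, Gpam 0.33 ± 0.06 and Erlin2 −0.28 ± 0.07 (adjusted p of 0.0026 to 0.0168). The lipoprotein receptor-related Lrp1 (−0.51 ± 0.13) and the lysosomal sterol carrier Npc2 (−0.38 ± 0.10) also fell, making 5 of 22. Of 23 other fatty acid and glycerolipid genes 5 passed, among them the acyltransferase Agpat2 (−0.37 ± 0.09), the citrate carrier Slc25a1 (−0.28 ± 0.08) and the elongase Elovl5 (0.23 ± 0.07). The LXR gene Nr1h2 fell (−0.24 ± 0.07) and the phospholipid transfer protein Pltp rose (0.26 ± 0.05), 2 of 6. The oxidation genes Hadhb (0.31 ± 0.06) and Acadl (0.20 ± 0.07) rose, 2 of 13. These shares bracket the 22.2% of all genes called.

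Some members share sequence with other genes, so that their reads are less certain. Of the distinct 31-base words in a gene's transcripts, 43.7% of those of Acat2 also occur in another gene, mostly Acat3, 33.5% of Acaca, 31.9% of Fdft1, 27.9% of Fdps, 27.1% of Idi1, 13.3% of Tm7sf2 and 13.1% of Hmgcs1. The reads of the partner genes over 12 libraries differed widely. Acat3 had 196 reads against 23833 for Acat2, and Gm5182 had 129 against 29530 for Acaca. Ctsb, which shares 17.6% of the words of Fdft1, had 239497 against 12444. Vps51, which shares 10.7% of those of Tm7sf2, had 14782 against 1394. For Insig1 (3.46%), Sqle (0.969%), Cyp51 (3.88%) and Insig2 (0.0%) little is shared. The leading transcript held at least 80% of a gene's TPM in 17 of the 32 members. For Insig1 it held 96.8% and averaged 64.9 TPM in DMSO, 56.0 in DMSO+FGF2, 46.8 in BGJ398 and 45.7 in BGJ398+FGF2. For Fdps it held 92.6% and averaged 181, 174, 138 and 141 TPM in the same order.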

How the data were processed

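Polyadenylated RNA of 12 libraries was quantified per transcript by the authors with Salmon against GRCm39, per the submitters' processing notes. How strand and bias were handled is not given in the sources used here. Each file held, per the file headers, expected counts (estimated reads, not scaled), TPM (corrected for length and scaled within a library) and effective lengths in bases. Expected counts were summed per gene by transcript identifier (GENCODE M21; 1522 of 116178 transcripts, 0.499% to 0.641% of reads, had no match and were left out), and rounded. Filtering with filterByExpr, TMM scaling and the quasi-likelihood test of edgeR 4.0.16 (R 4.3.3) used 1 model of 4 group means over 12 libraries (8 residual degrees of freedom). Adjusted p-values are Benjamini-Hochberg over 12542 genes, 2-sided, with a threshold of 0.05. The SE is the absolute log2 fold change divided by the square root of F. CPM are TMM-scaled. A fold change is the second named group minus its control, and the interaction is the change by FGF2 with inhibitor less the change without. All within-group pairs differed by 3.26 to 25.5 times the Poisson expectation, so none was a duplicate. The biological coefficient of variation was 8.49%.

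The members and lists were chosen with earlier results of these data known. All 32 members are named whatever their test. From each other list, up to 6 genes called with FGF2 in DMSO and up to 3 more called in another comparison are named, by smallest p. Dusp6, Spry4, Etv4, Etv5 and Alpl are given as a treatment check. Promoter windows of all members with an entry were searched for motifs, and those of 2 members called under BGJ398 without FGF2 are printed. Alternatives were DESeq2 1.42.0, limma-voom (limma 3.58.1), other size factors, no filter, counts scaled for length from TPM, only the compared groups, a replicate block and each library left out, and, chosen after seeing the data, leaving out 3 libraries and a length offset. The procedure was tested on simulated data.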

Additional observations from a re-analysis of the deposited data

Results flagged for a closer look

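The FGF2 change under BGJ398 differed from that in DMSO, by the interaction term of the edgeR model, for 1 of the 32 members and for 1 other gene of the lipid lists. The term passed in 4.24% of all genes, so these counts are not read as particular to the lists. For Insig2 the difference was −0.36 ± 0.09 on the log2 scale (adjusted p = 0.0359), from 0.37 ± 0.06 in DMSO to 0.01 ± 0.06 under BGJ398, with 3 of 3 FGF2 libraries above all DMSO libraries and overlapping groups under inhibitor. For Gpam it was 0.35 ± 0.09 (adjusted p = 0.0465), from −0.33 ± 0.06 to 0.02 ± 0.06. The Gpam libraries ranged from 79.6 to 90.2 CPM in BGJ398 and from 79.1 to 89.6 CPM in BGJ398+FGF2. Both calls were lost on leaving out most single libraries, at an adjusted p of up to 0.111 for Insig2 and 0.127 for Gpam, with values of −0.39 to −0.31 and 0.30 to 0.41. With counts scaled for length Insig2 kept its call (−0.45, 0.0356) and Gpam did not (0.36, 0.165).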

How the results depend on the processing

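Among single-member results past the threshold in the main fit or the alternative, none changed sign. Sign changes of results past it in neither fit were not counted. Of 21 member calls 8 were kept in every alternative run. Counts called in the whole table, the sterol arm and the fatty acid arm were 1680, 4 and 0 for FGF2 alone, 0, 0 and 0 for FGF2 on top of inhibitor, 41, 3 and 0 for inhibitor alone, 2782, 5 and 3 for inhibitor on top of FGF2, and 532, 0 and 0 for the interaction. DESeq2 gave 1 fatty acid gene for FGF2 alone, 5 genes for FGF2 on top of inhibitor, 153 genes, 7 sterol and 1 fatty acid for inhibitor alone, and 825 genes and 2 sterol for the interaction. No filter on low counts gave 6 genes for FGF2 on top of inhibitor and 83 genes and 5 sterol for inhibitor alone. Counts scaled for length gave 2 sterol genes for FGF2 alone, 12 genes and 0 sterol for inhibitor alone, 1816 genes and 3 sterol for inhibitor on top of FGF2, and 345 genes for the interaction. Only the compared groups gave 1 fatty acid gene for FGF2 alone, 1 gene for FGF2 on top of inhibitor, 64 for inhibitor alone, and 1794 genes, 3 sterol and 1 fatty acid for inhibitor on top of FGF2. Without the 3 libraries that stood apart, counts were 2611 genes and 1 fatty acid for FGF2 alone, 4 genes for FGF2 on top of inhibitor, 730 genes, 10 sterol and 2 fatty acid for inhibitor alone, 3691 of 12616 genes (29.3%) and 10 sterol for inhibitor on top of FGF2, and 1038 genes and 2 sterol for the interaction. A length offset gave 2 fatty acid genes for FGF2 alone, 1 gene for FGF2 on top of inhibitor, 114 genes, 5 sterol and 1 fatty acid for inhibitor alone, 8 sterol for inhibitor on top of FGF2 (the count over all genes is not given here), and 934 genes and 2 sterol for the interaction. The number of genes tested differed between some settings. Where no share over all genes is given, the arm counts are not read as above or below it. The cause was not tested for any of these.

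Leaving out each library gave 1018 to 2256 genes and 0 to 1 fatty acid genes for FGF2 alone, 0 to 1 genes for FGF2 on top of inhibitor, 9 to 104 genes, 0 to 5 sterol and 0 to 1 fatty acid for inhibitor alone, 1948 to 3345 genes, 4 to 6 sterol and 2 to 3 fatty acid for inhibitor on top of FGF2, and 328 to 956 genes, 0 to 1 sterol and 0 to 1 fatty acid for the interaction. On log2(TPM + 1) the mean arm levels moved with FGF2 alone, to −0.19 for sterol and −0.10 for fatty acid enzymes.

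Groups share replicate numbers, but deviations of same-numbered libraries correlated at only −0.15 to 0.24, and not every library did best with its own number, so the numbers were not taken as pairs. With the replicate block, inhibitor alone gave 21 genes and 1 sterol gene, and Hmgcs1 (adjusted p = 0.0667), Sqle (0.0588) and the Insig2 interaction (0.0627) were not called. Depth was lowest for Tm7sf2 and Idi1, at 1394 and 1455 reads over 12 libraries.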
